A study of Mus musculus with 4 samples.

Results

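The 9 transcription factor genes and 1 receptor gene described here direct the development of dendritic cells: Spi1, Irf8, Batf3, Id2, Nfil3, Irf4, Klf4, Zbtb46, Bcl6 and Flt3. Members were all probe sets that the array annotation assigns to one of these symbols. This gave 19 probe sets for the 10 genes, out of 45037 probe sets and 18193 genes on the array. Zbtb46 had 4 probe sets, Id2 had 3, Irf8, Irf4, Klf4 and Bcl6 had 2 each, and Spi1, Batf3, Nfil3 and Flt3 had 1 each. No probe set assigned to several genes named a member.

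The study compared bone marrow-derived dendritic cells (BMDC) from male C57BL/6 mice aged 6 to 8 weeks in 4 culture conditions, with 1 biological sample and 1 Affymetrix array for each. In the live coculture BMDC were kept with 1D8 cells, a line of mouse ovarian surface epithelium used as tumour cells, at 1 tumour cell to 5 BMDC. In the irradiated coculture the 1D8 cells had first received 50 Gy. In the conditioned medium sample 25% of the culture volume was 1D8 supernatant and no tumour cells were added, and control BMDC were cultured without 1D8 cells or supernatant. All 4 samples shared 7 days in medium with 500 U/ml GM-CSF, a growth factor of myeloid cells, and a sort by flow cytometry on the surface protein CD80 before RNA extraction. Whether animals were pooled is not stated in the labels. RNA of 1D8 cells on their own was not analysed here, so RNA of tumour cells and RNA of BMDC cannot be told apart in the cocultures.

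Dendritic cells arise from bone marrow progenitors under the pioneer factor PU.1, the product of Spi1, and the cytokine receptor FLT3. Type 1 conventional dendritic cells, which cross-present antigen, depend on IRF8, BATF3, ID2 and NFIL3, whereas IRF4 and KLF4 act in type 2 cells, which present antigen to helper T cells. ZBTB46 marks the conventional lineage against other myeloid cells, and BCL6 is a transcriptional repressor that also takes part in it. Cultures grown with GM-CSF are known to hold macrophage-like cells beside dendritic cells.

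Values are MAS5 signals, a linear brightness per probe set with no replicate and therefore no error of its own, and no test was run. Signals below 44.3, which is the median of all signals and is called the floor here, were raised to it before ratios were taken, and genes were counted as higher or lower from 2-fold on. As a description of noise, the SD of log2 ratios estimated from pairs of probe sets that share a gene was 0.41 for live coculture over control, 0.37 for irradiated coculture over control and 0.36 for conditioned medium over control, against 0.21 for irradiated over live coculture and 0.22 for either coculture over conditioned medium. The larger values thus belong to comparisons with the control array, whose median signal was lowest, the treated arrays having 45.3 to 46.8, against 38.7 in the control. Both probe sets of a pair were read on the same arrays, so differences between cultures or RNA samples that both share are not in this SD. Comparisons with the control share the control array, so they are not independent of each other. For Actb the ratio of 3' to 5' signal, which reflects RNA quality, was 1.12 to 1.2 on the treated arrays, against 1.30 on the control array, and its part in the results was not tested.

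The samples carried markers of myeloid and dendritic cells on every array. Itgax, which encodes CD11c, had signals of 1921 with live 1D8 cells, 1388 with irradiated cells and 2394 in conditioned medium, against 2534 in the control. Cd74, the invariant chain of MHC class II, had 6054, 6864 and 7510 in the same 3 conditions, against 8171 in the control. The macrophage receptor gene Csf1r was also bright, at 6233, 6649 and 7015, against 7521 in the control. Cd163, another macrophage receptor, was under the floor on all 4 arrays. The 13 macrophage markers summed to 36466, 39219 and 36412, against 37032 in the control, with 2 higher and 1 lower than the control in each coculture and 1 higher in conditioned medium, and median log2 ratios of -0.24, -0.13 and 0.04. Those past 2-fold were Nr4a1 and Sirpa, given further on, Cd14, a receptor for lipopolysaccharide, at 2.49-fold and 3.46-fold higher in the live and irradiated coculture, and Ccr2, a monocyte chemokine receptor, at 2.29-fold higher in conditioned medium, whose 3 other probe sets gave log2 ratios of -0.33 to 3.56 there, so that no direction is given for it. Both dendritic and macrophage markers were thus present, while Zbtb46 and Flt3 lay close to the floor, as described further on.

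Epithelial and mesothelial markers moved with the cocultures. Their summed signal over 20 genes was 3350 with live 1D8 cells, 4044 with irradiated cells and 1060 in conditioned medium, against 710.8 in the control. Krt19, a keratin, had signals of 569.7 and 767.4 in the cocultures and lay under the floor in conditioned medium and in the control, so it was at least 12.9-fold and 17.3-fold higher. Krt8 was 5.85-fold and 6.93-fold higher, Krt18 at least 6.07-fold and 6.88-fold, and Cdh1, which encodes E-cadherin, 4.91-fold and 5.82-fold. The 2-fold threshold was reached by 7 of 20 markers in the live and 9 of 20 in the irradiated coculture, all higher, and by 0 of 20 in conditioned medium, with median log2 ratios of 0.48, 0.83 and 0. These counts depend on the floor: with it at 12.9 they were 12 and 14 in the live and irradiated coculture, with medians of 1.66 and 1.92, and with it at 155.6 they were 3 and 3, with medians of 0. Markers above the floor numbered 15, 15 and 6, against 4 in the control. The part of these cells in the coculture values of the members was not tested.

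Promoters are shown for Nfil3 and Bcl6, the members with the widest span of signal, which differed in opposite directions between the cocultures and conditioned medium. RefSeq (GRCm38.p6) gave 11 promoter windows for 9 members, each of 250 bases before to 50 after a transcription start. The Nfil3 window lies at chr13:52980990-52981289 on the minus strand, and both Bcl6 windows lie on the minus strand of chromosome 16, at chr16:23988803-23989102 and chr16:23981234-23981533. Capitals mark GC boxes (GGGCGG, either strand) in Nfil3 and the palindromic STAT letters TTCNNNGAA in Bcl6.
Nfil3: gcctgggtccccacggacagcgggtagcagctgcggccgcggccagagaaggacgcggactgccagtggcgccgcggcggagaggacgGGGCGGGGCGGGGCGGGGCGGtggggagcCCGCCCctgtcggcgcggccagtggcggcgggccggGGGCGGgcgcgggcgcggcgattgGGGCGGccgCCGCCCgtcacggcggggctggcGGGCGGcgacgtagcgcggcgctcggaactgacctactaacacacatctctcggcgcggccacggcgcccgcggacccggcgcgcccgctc
Bcl6, first start: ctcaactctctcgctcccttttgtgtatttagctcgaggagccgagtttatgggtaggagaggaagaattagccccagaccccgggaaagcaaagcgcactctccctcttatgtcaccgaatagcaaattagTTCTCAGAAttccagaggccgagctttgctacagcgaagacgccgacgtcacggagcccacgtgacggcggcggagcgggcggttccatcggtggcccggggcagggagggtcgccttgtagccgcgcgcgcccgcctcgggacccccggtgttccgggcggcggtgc
Bcl6, second start: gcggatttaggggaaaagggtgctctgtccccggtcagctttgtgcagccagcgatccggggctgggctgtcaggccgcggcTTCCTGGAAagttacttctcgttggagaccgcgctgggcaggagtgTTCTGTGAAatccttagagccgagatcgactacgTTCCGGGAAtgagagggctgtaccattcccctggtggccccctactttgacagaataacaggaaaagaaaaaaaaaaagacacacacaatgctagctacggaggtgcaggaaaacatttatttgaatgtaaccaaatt

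The Nfil3 window was rich in GC, at 81.7% of bases against a median of 52.7% over 32851 promoters, and held 9 GC boxes, 4 of them in a row that share a base with the next. At least 9 such boxes occurred in 0.125% of all promoters, and at least 1 occurred in 35.7%. The 11 member windows had a median of 62.7% GC, from 50.7% for Zbtb46 up to that of Nfil3, with Batf3 at 75.7% and Klf4 at 74.3%. GC boxes lay in 7 of the 11, with 5 in the Batf3 and 4 in the Klf4 window. The STAT letters lay in 4 of the 11 windows, with 2 matches in 1 Irf8 window, 1 in that of Batf3 and the rest in Bcl6. The first Bcl6 window held 1 match to the STAT letters and the second held 3. Of all promoters 0.0335% held at least 3 and 8.3% held at least 1. The cut-offs of 9 GC boxes and 3 STAT matches were the highest counts among the member windows, and neither share was taken among windows of like GC. One of the 3 matches in the second window also reads as the BCL6 letters TTCCTNGAA, which are a subset of the STAT letters and occur in 1.59% of promoters. The second window also held a match to the ETS-IRF composite element, found in 2.72% of promoters. The D-box letters that NFIL3 is known to bind, TTATGTAA or TTACGTAA, occurred in 0 of the 11 windows and in 1.06% of all promoters. The interferon-stimulated response element (3.44% of promoters) and the letters AGGAAGT of PU.1 sites (9.35%) were in 0 of the 11 as well. The AP-1 letters TGANTCA were in the Zbtb46 window only, against 7.81% of promoters, and CAGCTG, an E-box, was in those of Id2, Nfil3 and Klf4, against 16.3%. The hypoxia core ACGTG was found in 5 of the 11 windows, including those of Klf4 and Batf3 but not that of Nfil3, against 19.6% of promoters. All letters were searched on both strands, and a match describes the sequence only.

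In both tumour cocultures, 2 of the 10 members were at least 2-fold apart from the control at their brightest probe set, Nfil3 higher and Bcl6 lower, while the other 8 were not. The second Bcl6 probe set did not share this, as given further on. Over all genes 5.6% were at least 2-fold apart in the live coculture (3.36% higher, 2.23% lower) and 5.72% in the irradiated coculture (3.47% higher, 2.25% lower). These shares are over all 18193 genes, of which 10241 and 10210 were above the floor on both arrays. Genes under it on both have a ratio of 0 and cannot be called, whereas all 10 members were above it on all 4 arrays. Shares of all genes, here and further on, are therefore no rate for genes as bright as the members, which was not computed. In conditioned medium 0 of the 10 members were 2-fold apart from the control at that probe set, against 3.71% of genes (2.3% higher, 1.41% lower). The median log2 ratio to the control over the 10 members was 0.16 with live 1D8 cells, -0.00028 with irradiated cells and 0.17 in conditioned medium, while that of all genes was 0 in each. That 0 is set by the genes held at the floor on both arrays. Among genes above the floor on both, the medians were -0.04, -0.05 and 0.002. Over all member probe sets, 3 of 19 were 2-fold apart in each coculture, against 6.57% and 6.08% of probe sets in the live and irradiated comparison, and 2 of 19 in conditioned medium, against 4.68%.

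**Figure D1:**
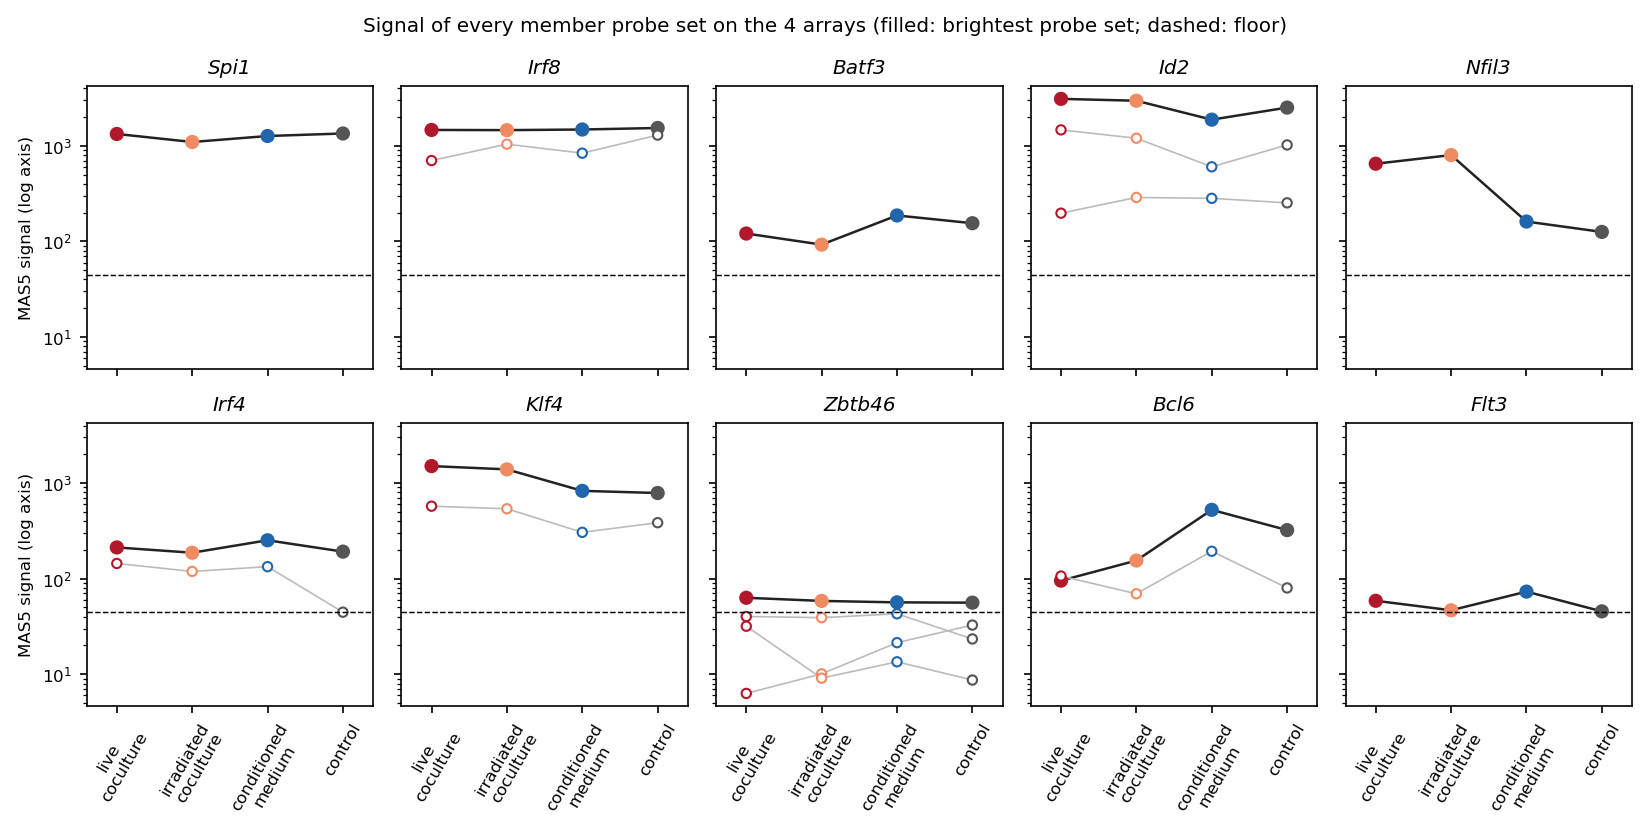
MAS5 signal (log axis) of each of the 19 member probe sets in the live coculture, irradiated coculture, conditioned medium and control arrays, 1 array each. Filled points are the brightest probe set of a gene, open points its other probe sets, lines join values of the same probe set, and the dashed line is the floor of 44.3. Nfil3 lies at 649.3 and 799.6 in the cocultures against 125.6 in the control, and 3 of the 4 Zbtb46 probe sets lie under the floor on every array.

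The factors of type 1 conventional cells did not move together. Nfil3, a basic leucine zipper repressor that acts upstream of ID2 in this lineage and also in the circadian clock, had signals of 649.3 with live 1D8 cells, 799.6 with irradiated cells and 161.2 in conditioned medium, against 125.6 in the control. Both cocultures were high, and conditioned medium and control were low. The ratio to the control was 5.17-fold with live 1D8 cells, 6.37-fold with irradiated cells and 1.28-fold in conditioned medium. Against conditioned medium, a comparison that does not use the control array, Nfil3 was 4.03-fold higher in the live and 4.96-fold higher in the irradiated coculture. At least 2-fold higher signals were found for 1.75% and 1.95% of genes in these 2 comparisons. Nfil3 has 1 probe set, so no second one could be set beside it, and its log2 ratio to the control under the other scalings and floors was 2.06 to 2.37 in the live and 2.36 to 2.67 in the irradiated coculture.

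Batf3, the partner of IRF8 that sustains type 1 cells, had signals of 120.8 with live 1D8 cells, 92.5 with irradiated cells and 186.7 in conditioned medium, against 154.9 in the control. Relative to the control it was 1.28-fold lower in the live coculture, 1.67-fold lower in the irradiated coculture and 1.21-fold higher in conditioned medium. Both coculture signals were thus under both others, but the ratio reached 2-fold in 1 of the 6 comparisons, being 2.02-fold lower in the irradiated coculture than in conditioned medium, where 1.24% of genes were at least 2-fold lower. Batf3 was under 2-fold there with the floor at 155.6, with 16 added in place of a floor, after quantile normalization and after median centring, so this call rests on the setting.

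Irf8, which commits progenitors to type 1 cells, was even over the 4 arrays at its brightest probe set, with signals of 1465 with live 1D8 cells, 1458 with irradiated cells and 1481 in conditioned medium, against 1535 in the control. These span 1.05-fold. The second probe set had 700.8, 1040 and 837.2 in the same 3 conditions, against 1294 in the control, so it was 1.85-fold, 1.24-fold and 1.55-fold lower. Both probe sets are annotated to the same transcript record. For live coculture over control they differ by 0.82 on the log2 scale, about the size of the second ratio itself, and no direction is given for Irf8.

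Id2 encodes an inhibitor that binds E proteins and keeps them from DNA, and is needed for type 1 cells. Its brightest probe set had signals of 3097 with live 1D8 cells, 2961 with irradiated cells and 1877 in conditioned medium, against 2510 in the control. The second had 1466, 1200 and 602.5, against 1021 in the control, in the same order of arrays from high to low. In both, the cocultures were highest and conditioned medium lowest, and the live coculture was 1.65-fold and 2.43-fold higher than conditioned medium. The third probe set had 197.2, 288.2 and 282.0, against 253.0 in the control, and here the live coculture was the lowest, 1.43-fold lower than conditioned medium. No Id2 probe set was 2-fold apart from the control.

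Spi1 varied little. Its product PU.1 opens chromatin for all of these lineages. Its signal was 1330 with live 1D8 cells, 1095 with irradiated cells and 1266 in conditioned medium, against 1345 in the control. The span over the 4 arrays was 1.23-fold, and a span of at least 2-fold was found for 15.1% of the 9847 genes above the floor on all 4 arrays, among them 3 of the 10 members, Nfil3, Bcl6 and Batf3.

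**Figure D2:**
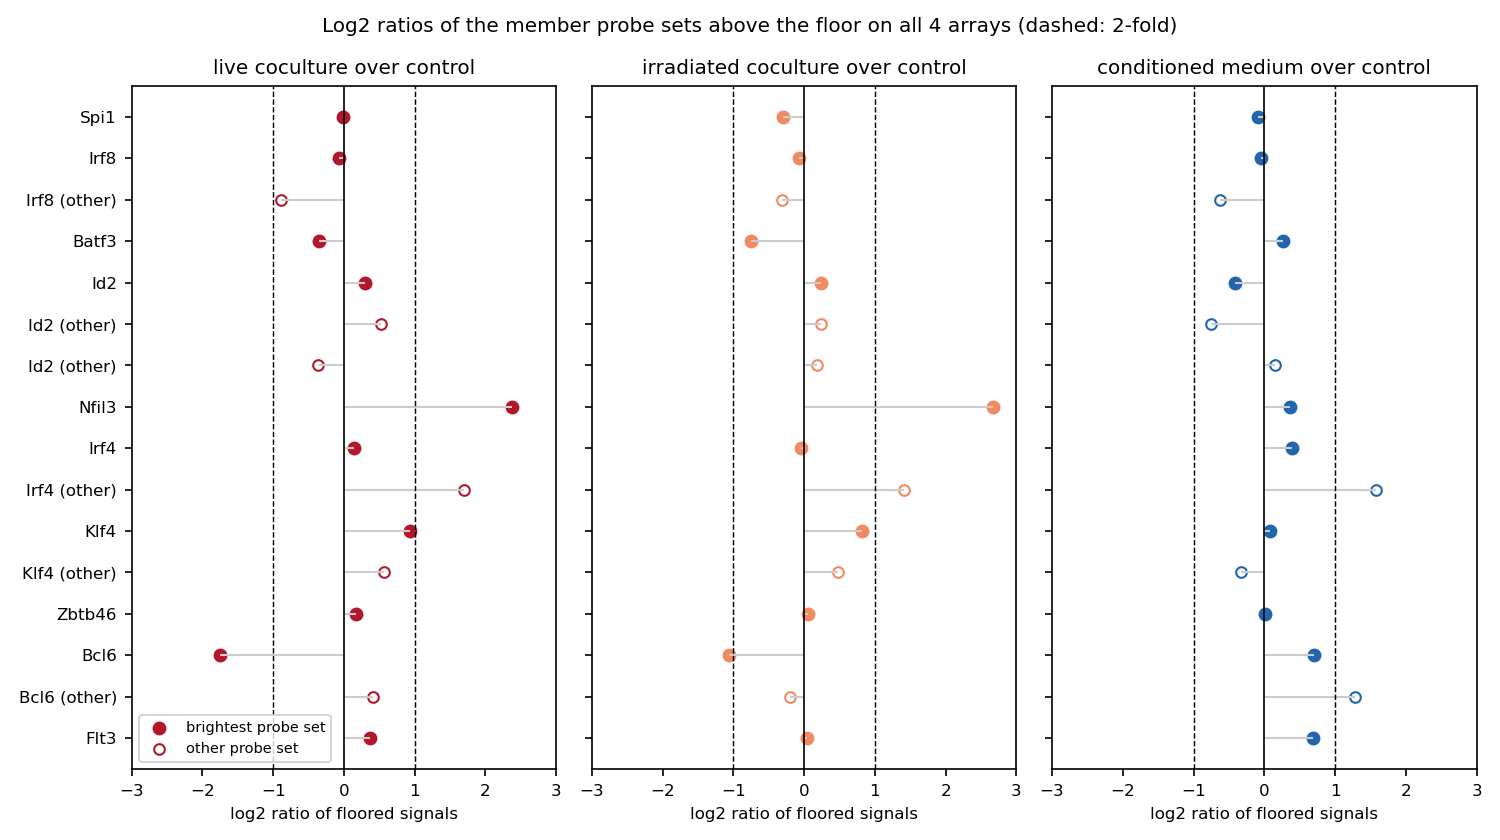
Log2 ratio to the control of the 16 member probe sets whose signals exceed the floor on every array, in the live coculture, irradiated coculture and conditioned medium (x axis, log2 of floored signals; dashed lines at 2-fold). Filled points are brightest probe sets and open points the others. Nfil3 is past 2-fold in both cocultures, the second Irf4 probe set in all 3 panels, and the probe sets of Bcl6 lie on opposite sides of 0 in the live coculture.

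The factors of type 2 cells gave a pattern that depended on the probe set for Irf4 and, in the cocultures, not for Klf4. Irf4, which drives antigen presentation on MHC class II and migration of type 2 cells, had signals of 212.2 with live 1D8 cells, 186.8 with irradiated cells and 252.2 in conditioned medium, against 191.8 in the control, at its brightest probe set. There the ratios to the control were 1.11-fold, 0.974-fold and 1.31-fold. The second probe set, annotated to the same record, had 144.2, 119.1 and 133.6, against 44.6 in the control. All 3 treated arrays were high and the control was near the floor, with ratios of 3.23-fold, 2.67-fold and 3.00-fold. The probe sets differ by 1.19 to 1.55 on the log2 scale in the 3 comparisons with the control and by at most 0.36 in the 3 that leave the control array out. A gap of over 1 was found for 11.8% of 4272 such pairs of probe sets for the live coculture, 8.75% of 4263 for the irradiated coculture and 8.51% of 4315 for conditioned medium.

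Klf4, a zinc finger factor of monocytes and type 2 cells that epithelia also express, had signals of 1506 with live 1D8 cells, 1392 with irradiated cells and 829.2 in conditioned medium, against 787.4 in the control. Its second probe set had 573.2, 538.3 and 305.4, against 385.1 in the control. At both, the cocultures were high and conditioned medium and the control were low. The ratio to the control was 1.91-fold and 1.49-fold in the live coculture and 1.77-fold and 1.4-fold in the irradiated coculture. Neither passed 2-fold as deposited, but after quantile normalization the brightest probe set did in the live coculture, at 1.07 on the log2 scale. Against conditioned medium the ratio was 1.82-fold and 1.88-fold in the live and 1.68-fold and 1.76-fold in the irradiated coculture, so the 2 probe sets differed by no more than 0.071 on the log2 scale there.

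The genes of the conventional lineage as a whole were dim except Bcl6. Zbtb46 had signals of 63.1 with live 1D8 cells, 58.5 with irradiated cells and 56.5 in conditioned medium, against 56.1 in the control, at its brightest probe set, a span of 1.12-fold. Its other 3 probe sets were under the floor on all 4 arrays, the highest signal among them being 42.9. Flt3, the receptor of FLT3 ligand on dendritic progenitors, had 58.7, 46.7 and 73.2, against 45.5 in the control. That is 1.61-fold higher in conditioned medium, but the control and the irradiated coculture lie at the floor. At these signals a decrease of either gene could not have been detected.

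Bcl6 was highest in conditioned medium at both of its probe sets. The brightest had signals of 95.3 with live 1D8 cells, 154.8 with irradiated cells and 524.8 in conditioned medium, against 322.1 in the control. The ratio was 3.38-fold lower in the live coculture, 2.08-fold lower in the irradiated coculture and 1.63-fold higher in conditioned medium. The second had 106.5, 69.5 and 193.6, against 80.0 in the control, which is 1.33-fold higher, 1.15-fold lower and 2.42-fold higher. The direction against the control therefore differs between the probe sets for the live coculture, and for the irradiated coculture only the brightest passes 2-fold.

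Against conditioned medium both Bcl6 probe sets point the same way. The live coculture was 5.51-fold lower at the brightest and 1.82-fold lower at the second, and the irradiated coculture 3.39-fold and 2.79-fold lower. At least 2-fold lower signals were found for 1.14% of genes for the live and 1.24% for the irradiated coculture in these comparisons. In all, 2 of 10 members were 2-fold apart between live coculture and conditioned medium, against 2.89% of genes, and 3 of 10 between irradiated coculture and conditioned medium, against 3.18%. These were Nfil3 and Bcl6, joined by Batf3 in the second, where 2 of 10 were left, without Batf3, in 5 of the 7 alternative settings. The shares again include genes held at the floor on both arrays, whereas all 10 members were above it on all 4.

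Between the irradiated and the live coculture 0 of 10 members and 0 of 19 probe sets differed 2-fold, against 0.671% of genes and 0.612% of probe sets. With so few genes past 2-fold, these counts are no trait of the members. At the brightest probe sets the largest ratio was that of Bcl6, at 154.8 in the irradiated and 95.3 in the live coculture (1.62-fold higher), while its second probe set was 1.53-fold lower. Nfil3 was 1.23-fold higher in the irradiated coculture and Batf3 1.31-fold lower. The second Irf8 probe set was 1.48-fold and the third Id2 probe set 1.46-fold higher there. On the log2 scale the Bcl6 probe sets were at 0.70 and -0.62, where the SD from pairs of probe sets, which leaves out variation between cultures, was 0.21.

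The genes with the 4-array pattern nearest to that of Nfil3 were found by the root mean square distance of log2 signals centred on each gene's mean, among 9544 genes above the floor on all arrays, symbols of clone or model form left out. They were Gys1, muscle glycogen synthase, at 0.046, Fam162a, a mitochondrial protein gene induced by hypoxia, at 0.056, and Pde4b, a phosphodiesterase that degrades cyclic AMP, at 0.081. Fam162a had signals of 1882 with live 1D8 cells, 2227 with irradiated cells and 500.1 in conditioned medium, against 365.0 in the control. Patterns were taken at the brightest probe set of each gene, and the second Bcl6 probe set orders the arrays differently, so its neighbours hold for the brightest only. The nearest to Bcl6 were farther off, namely Acpp, an acid phosphatase, at 0.24, the interferon-induced gene Ifi27l2a at 0.26 and Ciita, which switches on MHC class II genes, at 0.28. Ciita had 48.5, 64.9 and 176.7, against 178.4 in the control. Batf3 was nearest to Cyfip2, which encodes a protein of the actin-regulating WAVE complex, at 0.033, to the methyltransferase gene Setd6 at 0.036 and to Mpp6, a membrane scaffold gene, at 0.052.

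**Figure D3:**
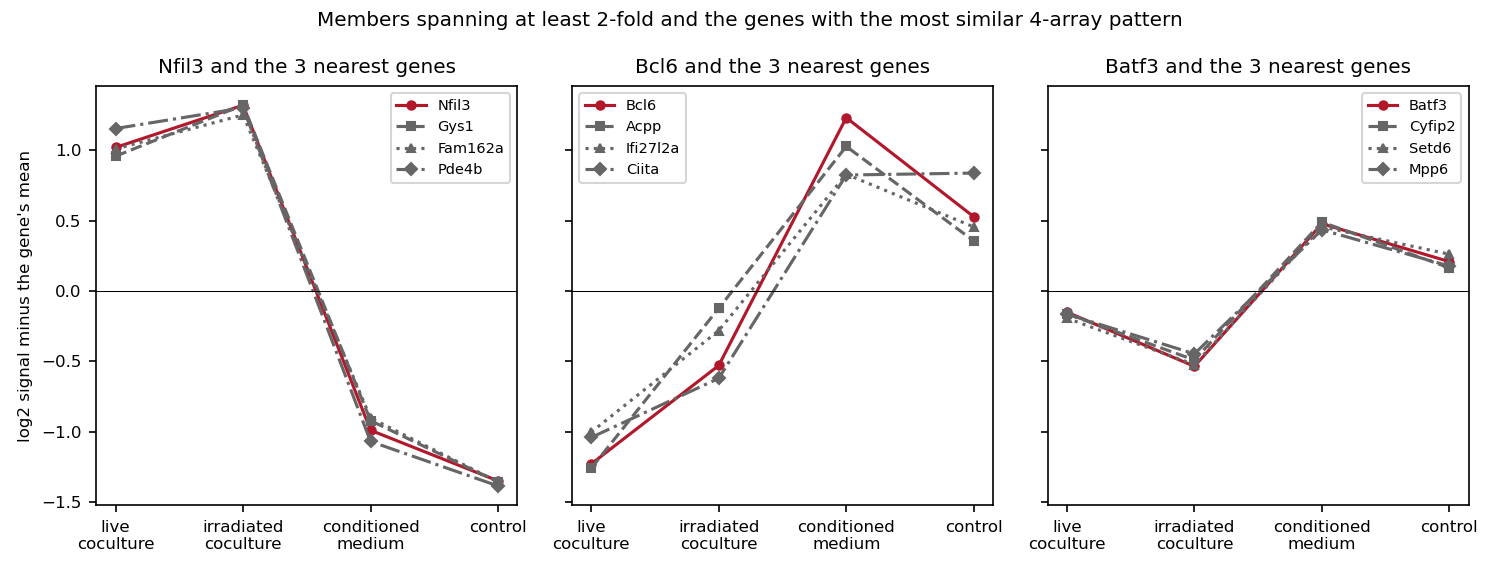
Log2 signal minus each gene's mean (y axis) in the live coculture, irradiated coculture, conditioned medium and control arrays for Nfil3, Bcl6 and Batf3 (red) and the 3 genes nearest to each (grey). Each gene is shown at its brightest probe set. Lines join values of 1 gene. The neighbours of Nfil3 lie within 0.081 log2 units of it by root mean square, and those of Bcl6 within 0.28.

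Id1 and Id3, the relatives of Id2, were higher in the cocultures, whereas the E proteins they bind were under 2-fold at their brightest probe sets. Id1 had signals of 645.9 with live 1D8 cells, 791.0 with irradiated cells and 177.4 in conditioned medium, against 94.7 in the control, which is 6.82-fold, 8.35-fold and 1.87-fold higher. Id3 had 311.5, 172.5 and 119.9, against 73.4 in the control, 4.24-fold, 2.35-fold and 1.63-fold higher. The 3 other probe sets of the E protein gene Tcf12 gave log2 ratios of -0.88 to 1.21 in the live coculture, so no direction is given for it. Tcf4, the E protein needed for plasmacytoid dendritic cells, had 320.1, 225.3 and 288.5, against 284.1 in the control. In this list 2 of 7 genes were at least 2-fold higher and 0 lower in each coculture, against 3.36% of genes higher in the live and 3.47% in the irradiated coculture. Its median log2 ratio was 0.69 and 0.40 in the live and irradiated coculture and 0.68 in conditioned medium, where 0 of 7 genes were 2-fold apart. As the mean over probe sets the medians were 0.22, 0.10 and 0.23. The median gene in both cocultures was Cbfa2t3, a corepressor that binds E proteins, whose 2 other probe sets above the floor gave -1.23 to -0.93 with live and -1.39 to -0.38 with irradiated cells, so the medians carry no direction.

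Other KLF factors were higher in part. Of 13, 3 were at least 2-fold higher with live 1D8 cells, 4 with irradiated cells and 2 in conditioned medium, and none was lower. Median log2 ratios were 0.43, 0.17 and 0.13. Over all genes 3.36%, 3.47% and 2.3% were at least 2-fold higher and 2.23%, 2.25% and 1.41% lower in the 3 comparisons with the control. The same shares stand beside the counts of every other list. Klf11 was 3.61-fold, 2.39-fold and 2.37-fold higher. Klf2, which restrains myeloid activation, had 674.4, 810.6 and 643.5, against 312.0 in the control, 2.16-fold, 2.60-fold and 2.06-fold higher. Klf7 was 2.24-fold and 2.26-fold higher in the live and irradiated coculture and 1.09-fold in conditioned medium. Klf10, which is induced by TGF-beta, was 2.14-fold higher in the irradiated coculture. After median centring 2 of the 13 were higher in the live coculture and 1 in conditioned medium.

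Of 9 AP-1 family genes, those of JUN and FOS proteins with Batf and Batf2, 3 were higher in the live and 4 in the irradiated coculture. In the cocultures 0 of 9 were lower, and 0 of 9 were 2-fold apart in conditioned medium. Their median log2 ratio was 0.56 with live 1D8 cells, 0.78 with irradiated cells and 0.04 in conditioned medium, the last being -0.07 after median centring. Fosb was 5.94-fold and 7.03-fold higher, Fosl2 2.90-fold and 3.86-fold and Junb 2.82-fold and 3.28-fold. Fosl1 was at least 2.46-fold higher in the irradiated coculture, its control signal of 19.6 being under the floor. Batf, the close relative of Batf3, had 173.2 with live 1D8 cells, 191.2 with irradiated cells and 150.8 in conditioned medium, against 218.0 in the control, none of them 2-fold apart.

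Clock genes, listed with Tef and its relatives, were split. Of 13, 1 was higher and 2 lower in the live coculture, 1 higher and 1 lower in the irradiated coculture and none 2-fold apart in conditioned medium, with median log2 ratios of 0.18, 0.14 and -0.09. The median of the live coculture was -0.06 after quantile normalization, and with the floor at 155.6 none of the 13 was 2-fold apart in either coculture. Per2, a clock repressor, was at least 3.10-fold higher in the live and at least 2.95-fold higher in the irradiated coculture, its control signal of 40.6 being under the floor. Nr1d2, a nuclear receptor of the clock, had 114.3 and 92.9 in the cocultures and 233.2 in conditioned medium, against 248.5 in the control, 2.17-fold and 2.67-fold lower in the cocultures. Tef, an activator at D-boxes, was 2.17-fold lower in the live coculture.

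Of 11 measured BCL6 corepressors and known targets, 4 were at least 2-fold higher with live 1D8 cells, 5 with irradiated cells and 1 in conditioned medium, and none was lower, with median log2 ratios of 0.38, 0.18 and 0.09, the last being -0.02 after median centring. All of these were target genes, but the targets Prdm1 and Cdkn1b were under 2-fold in all 3 comparisons. Log2 ratios were 0.38, 0.06 and -0.24 for Prdm1 and -0.44, -0.11 and 0.21 for Cdkn1b. Ccnd2, a cyclin, had 1550 with live 1D8 cells, 1396 with irradiated cells and 470.0 in conditioned medium, against 185.1 in the control, and its 4 other probe sets above the floor were higher on all 3 treated arrays too. Ccl2 was 8.08-fold and 7.23-fold higher in the cocultures and Ccl7 15.0-fold and 9.01-fold. Socs2 and Cish, inhibitors of cytokine signalling that STAT5 also induces, were 2.80-fold and 2.84-fold higher in the irradiated coculture and 2.31-fold and 1.97-fold in the live coculture. At the 2 other Socs2 probe sets above the floor, log2 ratios were 0.39 to 1.27 (live) and 0.79 to 1.57 (irradiated). The corepressor gene Bcor had 226.7, 218.7 and 236.1, against 229.2 in the control.

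Of 40 measured transcription factors of myeloid development outside the 10, 5 were higher and 3 lower in each coculture and 4 higher and 2 lower in conditioned medium, with medians of -0.06, 0.00 and 0.00. Ahr, the aryl hydrocarbon receptor, was 7.44-fold higher with live 1D8 cells, 10.9-fold with irradiated cells and 2.09-fold in conditioned medium. Nr4a1, an early response nuclear receptor, was 8.61-fold higher in the live and 4.07-fold in the irradiated coculture. Rbpj, which carries Notch signals in type 2 cells, had 2369, 2602 and 1966, against 906.0 in the control, and its 2 other probe sets above the floor had log2 ratios of 1.01 to 1.90 on the 3 treated arrays. Cebpa, a factor of granulocyte and monocyte progenitors, was 2.43-fold lower in the live and 2.52-fold lower in the irradiated coculture. Relb, an NF-kappaB subunit of mature dendritic cells, had 56.9 with live 1D8 cells, 27.7 with irradiated cells and 77.6 in conditioned medium, against 144.2 in the control, 2.53-fold lower, at least 3.26-fold lower and 1.86-fold lower. Rel, another NF-kappaB subunit, went the other way, with 127.2, 82.3 and 55.7, against 41.6 in the control, which is under the floor. Rel was at least 2.87-fold higher in the live coculture, 1.86-fold in the irradiated coculture and 1.26-fold in conditioned medium. After quantile normalization 5 of the 40, and after median centring 6, were lower in each coculture.

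**Figure D4:**
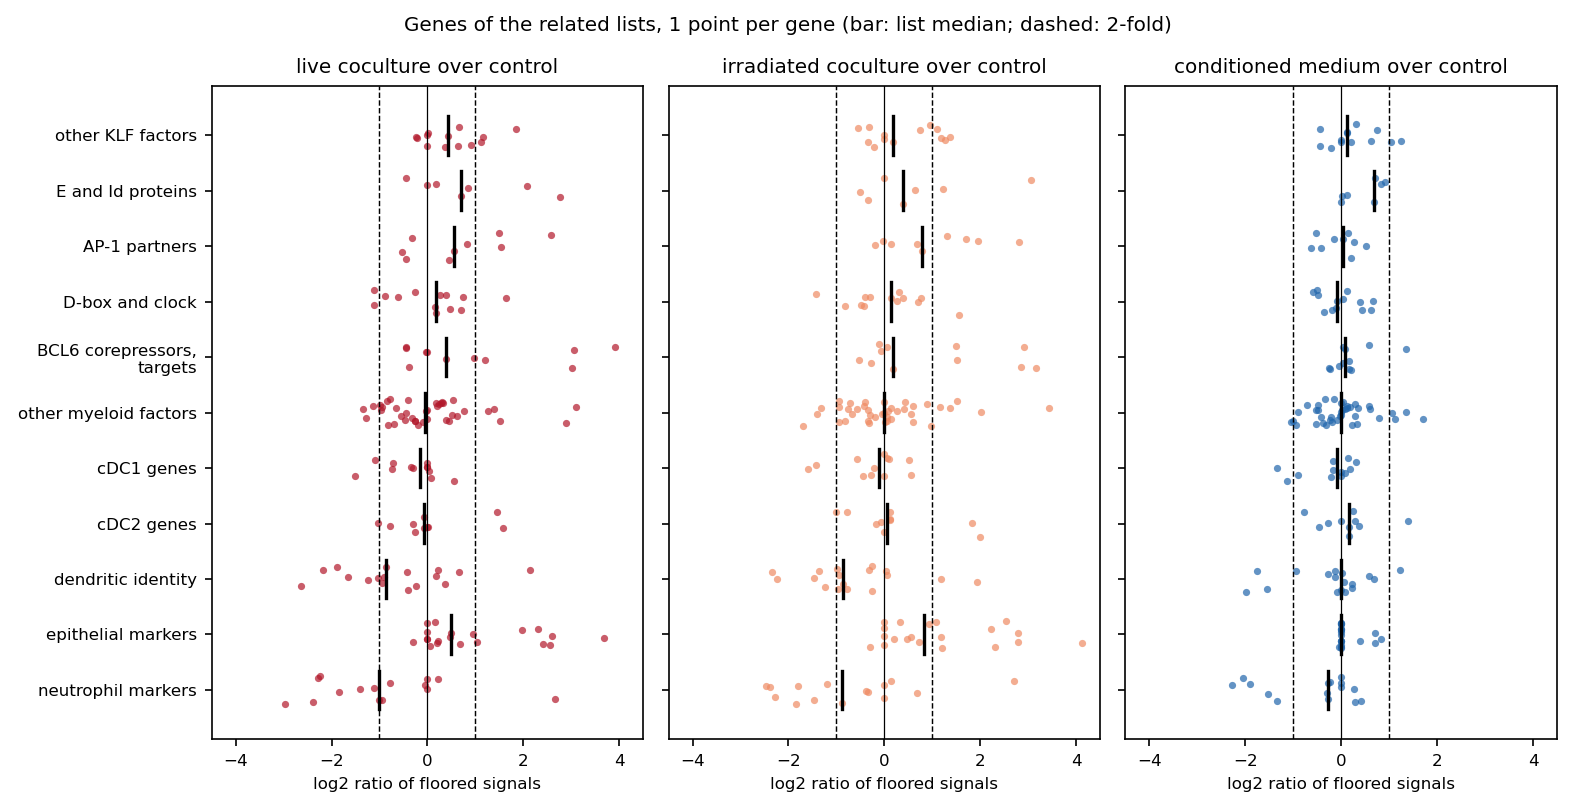
Log2 ratio to the control (x axis, floored signals; dashed lines at 2-fold) of each gene in 11 related lists, 1 point per gene, with the list median as a bar, for the live coculture, irradiated coculture and conditioned medium. Vertical scatter within a list has no meaning. The dendritic identity list has medians of -0.87 in both cocultures and -0.01 in conditioned medium, and epithelial markers have medians of 0.48, 0.83 and 0.

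Genes that mark each subset of dendritic cells were measured beside the members. Of 12 measured genes of type 1 cells, 2 were lower and none higher relative to the control under each treatment, with medians of -0.16, -0.10 and -0.08. They were Ly75 and Rab7b in the cocultures and Ly75 and Cadm1 in conditioned medium. Rab7b, a late endosome GTPase, had 665.7 with live 1D8 cells, 468.9 with irradiated cells and 762.9 in conditioned medium, against 1423 in the control, and was 2.14-fold, 3.03-fold and 1.87-fold lower. Ly75, the endocytic receptor DEC-205, had 31.2, 47.2 and 58.1, against 126.6 in the control, at least 2.86-fold, 2.68-fold and 2.18-fold lower. Cadm1, an adhesion molecule of these cells, was at least 2.53-fold lower in conditioned medium at its brightest probe set, and its other one gave -0.34 on the log2 scale. Xcr1, a defining receptor of type 1 cells, was under the floor on all 4 arrays.

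Of 10 measured genes of type 2 cells, 2 were higher and 1 lower in each coculture and 1 higher in conditioned medium, with medians of -0.07, 0.06 and 0.17. Itgam, which encodes CD11b, had 2846 with live 1D8 cells, 3675 with irradiated cells and 2741 in conditioned medium, against 1038 in the control. Il1r2, a decoy receptor, was 2.98-fold and 3.98-fold higher in the cocultures. Sirpa, an inhibitory receptor, was 2.03-fold and 2.02-fold lower there, while its other probe sets gave log2 ratios of -0.43 to 0.11 in the live coculture. Of 12 measured plasmacytoid genes 0 were 2-fold apart in the live coculture, and Irf7 had 941.6 in conditioned medium, against 287.3 in the control (3.28-fold higher). In the irradiated coculture Ptprs, a phosphatase of plasmacytoid cells, was 2.17-fold higher (0.48 on the log2 scale at its other probe set) and Tlr7, a sensor of RNA, 2.05-fold lower.

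The list of dendritic cell identity, which includes Flt3 and Zbtb46, had 6 of 17 genes lower and 1 higher in the live coculture, 5 lower and 2 higher in the irradiated coculture and 3 lower and 1 higher in conditioned medium, with median log2 ratios of -0.87, -0.87 and -0.01. After median centring 8, 8 and 4 were lower, and with the floor at 155.6, 4, 3 and 3. Ccl22, a T cell attractant of mature dendritic cells, had 229.1, 300.8 and 355.6, against 1417 in the control. Ccr7, the receptor that leads dendritic cells to lymph nodes, had 131.6, 117.5 and 175.7, against 596.4 in the control. H2-Ab1, an MHC class II chain, had 1382, 1444 and 2931, against 2813 in the control, and Ciita was 3.68-fold and 2.75-fold lower in the live and irradiated coculture. Cd80 was 4.42-fold, 3.81-fold and 2.35-fold higher, and as the sort used its product this is not independent of the gate. Fewer cells of a type and less RNA per cell cannot be told apart in such samples.

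Markers of other cells that such cultures can hold differed too. Of 15 neutrophil markers 8 were lower with live 1D8 cells, 7 with irradiated cells and 5 in conditioned medium, and Mmp9, a gelatinase, was higher in both cocultures, at least 6.33-fold and 6.51-fold. Their summed signal was 4264, 5086 and 8702, against 9323 in the control. Most of it came from Mmp8, a collagenase, at 2635, 3102 and 6902, against 5677 in the control. Without Mmp8, left out after seeing the data, the sums were 1629, 1984 and 1801, against 3645 in the control, so that conditioned medium lay near the cocultures. With the floor at 155.6, 4, 3 and 3 of the 15 were lower. Hp, which encodes haptoglobin, was 7.79-fold, 5.56-fold and 4.12-fold lower. Ctsg, a granule protease, was at least 5.26-fold lower in both cocultures, and S100a9, a subunit of calprotectin, at least 4.84-fold lower under all 3 treatments. Of 9 mast cell and basophil markers 2, 2 and 0 were lower, with sums of 278.9, 348.8 and 923.6, against 1375 in the control. They were Cpa3, a mast cell protease, at 8.73-fold and 6.44-fold lower in the live and irradiated coculture, and Mcpt8, a basophil protease, at least 8.70-fold lower in both. Of 11 lymphoid markers 1, 1 and 0 were lower, namely Cd79b of the B cell receptor, at least 2.03-fold in both cocultures, with sums of 405.0, 447.5 and 495.7, against 557.6 in the control. Cd3g and Cd3d of T cells were under the floor on all 4 arrays. The part of these markers in the members' values was not tested.

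The receptors that respond to GM-CSF in the cultures differed less than 2-fold. Csf2ra had 1788 with live 1D8 cells, 1769 with irradiated cells and 1864 in conditioned medium, against 1804 in the control. Csf2rb had 3791, 4460 and 3926, against 5549 in the control. Their list of 17 measured genes held growth factors, receptors and other myeloid signalling and surface genes. In it 1 was higher and 2 lower in the live coculture, and 2 higher and 2 lower in the irradiated coculture. In conditioned medium 1 was higher and 1 lower. The gene higher under all 3 treatments was Itgam, the CD11b gene also counted for type 2 cells. The lower gene in conditioned medium was Kit, the stem cell factor receptor, at 33.0, against 98.5 in the control (at least 2.22-fold lower). Csf3r, the receptor of G-CSF, was 2.65-fold and 2.76-fold lower in the live and irradiated coculture. Stat5a, which relays GM-CSF signals, was 2.21-fold and 2.64-fold lower there at its brightest probe set, while its other probe set had 0.46 on the log2 scale with live cells.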

How the data were processed

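RNA was measured on 4 Affymetrix arrays, 1 per condition. Each probe set has 1 deposited intensity, a MAS5 signal from GCOS 1.4, per the submitters' processing notes; the scaling target is not given in the sources used here. Trimmed of 2% at either end, signals averaged 150.0 on every array, so they were not rescaled. Because MAS5 takes away mismatch brightness, dim probe sets give noisy ratios.

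Of 45101 probe sets, 64 control sets were left out, 34945 had 1 gene, 932 several and 9160 none in the annotation. Symbols matched RefSeq (GRCm38.p6) for 34741. The brightest probe set, by mean log2 signal, stood for its gene. Ratios are log2 ratios of signals floored at 44.3. With 1 array per condition no error or p-value could be computed, so precision is limited by the number of arrays. Lists of related genes, 16 in all, and the 10 members were chosen with earlier results of these data known. All members are named, up to 4 genes of a list with the largest ratios from 2-fold on, and the 3 genes nearest in pattern to each member that spans 2-fold. Itgax, Cd74, H2-Ab1, Cd80 and Krt19 were named as defining markers. Csf1r, Cd163, Tcf4, Tcf12, Batf, Bcor, Socs2, Prdm1, Cdkn1b, Rbpj, Cebpa, Rel, Xcr1, Cd3g, Cd3d, Csf2ra, Csf2rb, Mmp8 and Cbfa2t3 were chosen after their values were seen. Alternatives were other floors (12.9 and 155.6), 16 added in place of a floor, quantile normalization, median centring, the mean over probe sets and a 3-fold threshold. Python 3.11.15, pandas 2.3.3 and numpy 2.4.6 were used, and the ratio step was tested on simulated data.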

Additional observations from a re-analysis of the deposited data

How the results depend on the processing

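Of 42 recomputed counts of members at least 2-fold apart (6 comparisons, 7 alternatives), 38 stayed within 1.5 times the count reported. Among these, quantile normalization gave 3 in live coculture over control, Klf4 joining. Irradiated coculture over conditioned medium fell to 2 from 3, Batf3 being lost, with the floor at 155.6, with 16 added, after quantile normalization, after median centring and at a 3-fold threshold. The 4 beyond 1.5 times were live coculture over control as the mean over probe sets (1 member instead of 2) and irradiated coculture over control with 16 added in place of the floor, as the mean over probe sets and at a 3-fold threshold (1 member instead of 2 in each). In these 4 Nfil3 remained and Bcl6 was lost, with log2 ratios of -0.67 (live) and -0.63 (irradiated) as the mean over probe sets and -0.99 (irradiated) with 16 added. The mean over probe sets joins probe sets that disagree, by construction. Of 180 single log2 ratios to the control, 169 kept their side of 2-fold and moved by less than the SD from pairs of probe sets, 11 moved and none that was called changed sign. With the floor at 155.6 the log2 ratio of Bcl6 in the live coculture was -1.05 and those of Batf3, Flt3 and Zbtb46 in the cocultures were 0, as their signals lie under it. As the mean over probe sets Irf4 had 0.92, 0.69 and 0.99 with live cells, irradiated cells and conditioned medium. Uncalled ratios of Irf8 and Zbtb46 under all 3 treatments, Spi1 in the live coculture and conditioned medium, Klf4 in conditioned medium and Irf4 and Flt3 in the irradiated coculture took either sign over the alternatives. Median centring shifted the median log2 ratio to the control by -0.12 with live cells, -0.07 with irradiated cells and -0.11 in conditioned medium. Over all genes, 612 were higher and 406 lower in the live coculture, 632 and 409 in the irradiated coculture and 419 and 256 in conditioned medium. These became 479 and 482, 530 and 468, and 284 and 339 after quantile normalization, and 490 and 559, 557 and 504, and 300 and 408 after median centring. The floor at 12.9 gave 1463 and 782, 1396 and 817, and 1088 and 597, and that at 155.6 gave 270 and 243, 293 and 232, and 170 and 137. The 3-fold threshold gave 194 and 77, 230 and 96, and 61 and 37. Counts in the lists of related genes also moved with the floor, as given for the epithelial and neutrophil markers. No paired analysis was possible because each condition had 1 array. Signals near the floor limit what can be said of Zbtb46 and Flt3.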
